A study of Mus musculus with 9 samples.

Results

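Cyclins and cyclin-dependent kinases (CDKs) were followed in splenic type 2 conventional dendritic cells (cDC2s) of wild-type, CD97-deficient and Gα13-deficient mice. The members were the 10 rows of the count table that hold the cell cycle cyclins Ccnd1, Ccnd2, Ccnd3, Ccne1, Ccne2, Ccna2, Ccnb1 and Ccnb2 and the kinases Cdk1 and Cdk2, out of 14209 genes. The rule names the genes and uses no threshold on their values, but it was written with earlier results of these data known, so the members' counts are not free of selection. All 10 passed the filter on low counts, as did 12043 genes in all. RNA was sequenced from cDC2s of the spleen of C57BL/6 mice, in 3 libraries of each genotype. The wild-type (WT) libraries carry no named allele. The CD97-deficient libraries are labelled as a knockout of CD97, the adhesion G protein-coupled receptor encoded by Adgre5, which the table lists as Cd97. The Gα13-deficient libraries come from CD11c-Cre Gna13 fl/fl mice, in which the CD11c promoter drives Cre and so deletes Gna13, the gene of a G protein alpha subunit, in CD11c-expressing cells, macrophages with CD11c included. The genotype label of these libraries also reads Adgre5-/-, whereas the series title and design describe Gα13 deficiency alone. The labels give neither age nor sex, whether the controls carried Cre or floxed alleles, how the cells were sorted, or whether each library came from a separate mouse, and the spread that the p-values rest on may therefore be technical.

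A cyclin has no kinase activity of its own: it binds a CDK, opens the kinase's active site and helps to choose its substrates. D-type cyclins pair with CDK4 and CDK6 in G1 and begin the phosphorylation of the retinoblastoma family, which frees E2F transcription factors. E-type cyclins with CDK2 drive entry into S phase, cyclin A with CDK2 and then CDK1 acts through S phase and G2, and the B-type cyclins with CDK1 start mitosis. D-type cyclins follow growth factor signals, while the E, A and B cyclins rise and fall within each cycle and are made mostly by dividing cells. Splenic dendritic cells come from bone marrow precursors that still divide in the tissue, so a cDC2 sample normally holds some cycling cells. In bulk RNA, a change in the share of cycling cells and a change in cyclin RNA per cycling cell cannot be told apart.

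The 9 libraries held 5679946 to 13904646 counts, and 3 counts corresponded to 0.216 to 0.528 CPM, the normalised read count scaled to the library. Gna13 fell in the Gα13-deficient libraries by 1.09 ± 0.11 (SE) on the log2 scale against WT (edgeR quasi-likelihood test, adjusted p = 6.84e-05). Cd97 stood at 1506, 899 and 1299 CPM in WT replicates 1, 2 and 3, at 726, 840 and 438 CPM in the CD97-deficient libraries and at 1145, 1224 and 1016 CPM in the Gα13-deficient ones. Its difference between CD97-deficient and WT, -0.89 ± 0.28 on the log2 scale, did not pass the test (adjusted p = 0.105). Itgax, Flt3, Zbtb46 and the other cDC2 markers were all detected, with a summed level of 10038 to 11284 CPM in WT, 9224 to 9631 CPM in CD97-deficient and 9676 to 10781 CPM in Gα13-deficient libraries. The 13 red pulp macrophage markers were all present, Adgre1 under its older symbol Emr1, at a summed 447 to 1529, 515 to 1979 and 645 to 1039 CPM in the same order. Their means did not move together: Emr1 stood at 281, 183 and 170 CPM and Hmox1 at 58.8, 142 and 80.3 CPM. Other lists also differed between genotypes, in both directions. The T cell list (7 of 8 present) summed to 579 to 869, 395 to 461 and 381 to 531 CPM, most of it Cd4. The plasma cell list (4 of 8 present) summed to 393 to 434, 352 to 393 and 322 to 366 CPM, most of it Irf4, also a cDC2 marker here. The 7 monocyte markers summed to 177 to 353, 203 to 380 and 312 to 358 CPM. The 8 plasmacytoid dendritic cell markers summed to 154 to 212 CPM in WT, 171 to 195 CPM without CD97 and 218 to 334 CPM without Gα13, where they did not overlap WT. The 7 cDC1 markers summed to 141 to 228, 149.6 to 232 and 213 to 275 CPM. They did not move together: Xcr1 was at a mean of 6.25, 15.4 and 14.4 CPM and Batf3 at 61.9, 50.3 and 46.3 CPM. NK cell markers (6 of 7 present, 0.510 to 2.99, 1.03 to 4.73 and 4.21 to 6.61 CPM) and neutrophil markers (3 of 7 present, 1.36 to 1.64, 1.03 to 1.77 and 2.50 to 3.28 CPM) were low, and without Gα13 above WT with no overlap. The erythroid list (4 of 9 present) summed to 175 to 320, 179 to 189 and 138 to 211 CPM, most of it Tfrc, which other dividing cells also make. The part of these cell types in the members' changes was not tested. Xist and Y-linked counts gave a female pattern in 1 of 3 WT, 3 of 3 CD97-deficient and 1 of 3 Gα13-deficient libraries, so that sex and CD97 genotype largely coincide.

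Against WT, both mutant genotypes held more RNA of the S phase and mitotic cyclins and of Cdk1, and less Ccnd2, while Ccnd1 was close to WT. In CD97-deficient cDC2s 7 of the 10 members passed an adjusted p of 0.05, 6 higher and 1 lower, where 8.53% of all 12043 tested genes passed (4.84% higher and 3.69% lower). In Gα13-deficient cDC2s 8 members passed, 7 higher and 1 lower, against 11.0% of all genes (5.74% higher and 5.24% lower). The median log2 fold change of the members was 0.89 and 0.97 respectively, and that of all genes 0.00 and -0.01. The CPM of the WT libraries and of the mutant libraries did not overlap for 8 members in the CD97 comparison, as for 28.2% of all genes, and for 9 members in the Gα13 comparison, as for 29.6% of all genes. Both comparisons use the same 3 WT libraries and are therefore not independent. Replicate 2, which among WT libraries alone had the female pattern, was the highest WT library for 7 members (Ccne1, Ccne2, Ccna2, Ccnb1, Ccnb2, Cdk1 and Cdk2) and the lowest for Ccnd2. Among female-pattern libraries (3 against 1), the CD97 differences were 0.09 (Ccnd1), 0.34 (Ccnd3), 1.11 (Ccne1) and 0.77 (Ccne2) on the log2 scale. They were 0.83 for Ccnb1, 0.62 for Ccnb2, 0.72 for Cdk1 and 0.23 for Cdk2. These, and those of Ccnd2 and Ccna2 below, were all smaller in size than the fold changes over all libraries. WT replicate 2 is the only WT library in them, so the smaller size follows from its levels and is no separate result. This library also had the highest macrophage marker sum of WT, 1529 CPM against 695 and 447 CPM in replicates 1 and 3. The part of sex in the members' changes was not tested apart from genotype beyond the female-pattern differences and the values given below.

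**Figure D1:**
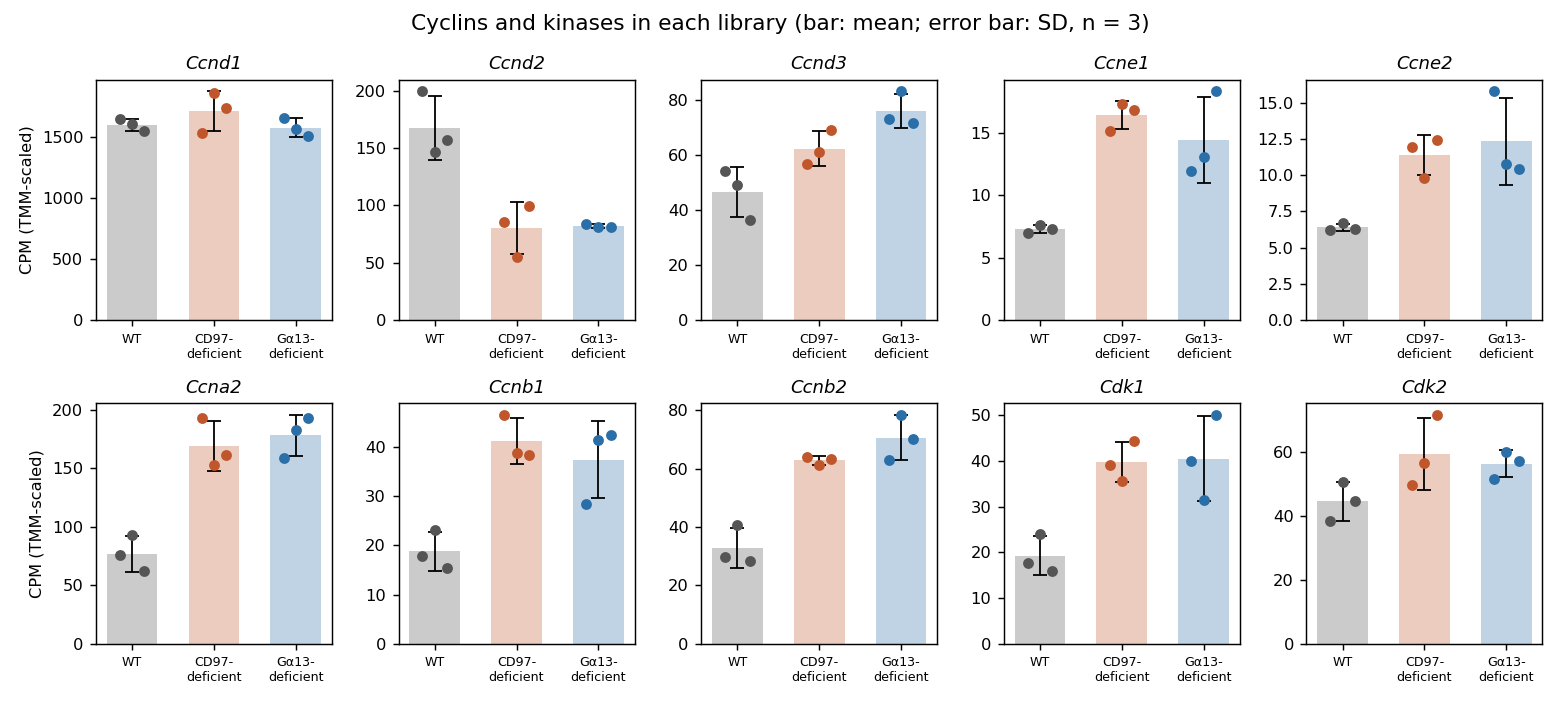
Each panel plots 1 cyclin or kinase, with the 3 genotypes on the x axis and normalised read counts (CPM) from 0 on the y axis; a point is 1 library, a bar the mean of 3 and an error bar the SD. Ccnd2 lies lower in both mutant genotypes, Ccnd1 is level, and the E, A and B cyclins and Cdk1 lie higher in every mutant library than in any WT library.

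Levels of different genes were compared only per kilobase of annotated exon (CPM per kb). Ccnd1 stood far above the other members in every genotype, with 340 ± 11.0 CPM per kb (SD, n = 3) in WT, which placed it 29th among 10411 tested genes with a known length. In WT the order went on with Ccnb2 (21.5), Ccna2 (18.8), Ccnd2 (17.8), Cdk2 (7.16), Ccnd3 (5.30), Ccnb1 (4.45), Cdk1 (3.90), Ccne1 (2.74) and Ccne2 (1.83 CPM per kb). The ranges over WT libraries overlapped between Ccnb2 and Ccna2, Ccna2 and Ccnd2, Ccnd3 and Ccnb1, and Ccnb1 and Cdk1. Within each WT library, however, Ccnb2 stood above Ccna2, Ccnd3 above Ccnb1 and Ccnb1 above Cdk1, while Ccna2 and Ccnd2 changed order. The differences between these neighbours were not tested. With the mean length of coding transcripts in place of all exons, Ccnd1 was again highest (428 CPM per kb) and Ccne1 and Ccne2 lowest (5.60 and 2.15), but Ccnd2 (75.0) and Ccnd3 (44.6) moved above Ccna2 (31.0) and Ccnb2 (21.5). In CD97-deficient cells Ccna2 and Ccnb2 stood at 41.4 and 41.1 CPM per kb, and in Gα13-deficient cells at 43.6 and 46.1. Ccnd2 then stood at 8.53 and 8.72 CPM per kb, and its range overlapped that of its neighbours in the order, Cdk2 and Cdk1 without CD97 and Ccnb1 and Ccnd3 without Gα13.

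**Figure D2:**
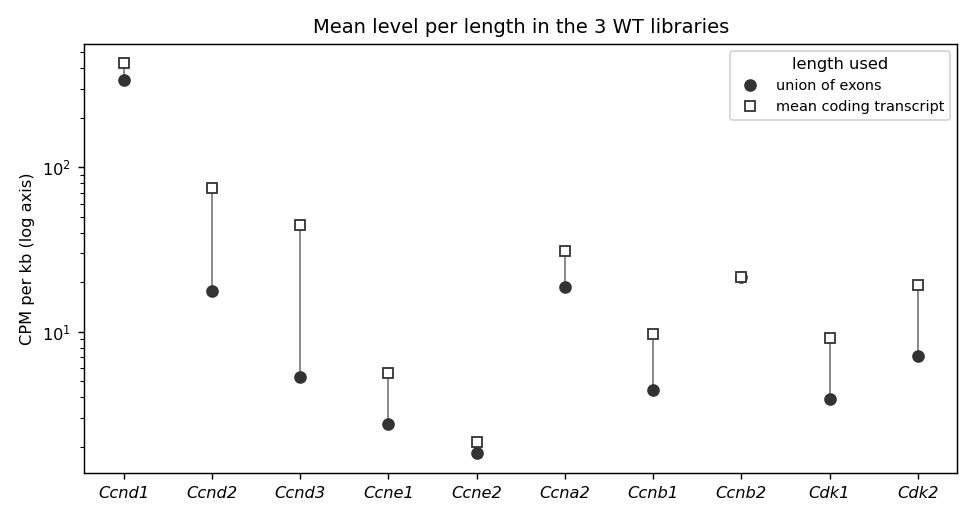
Mean CPM per kilobase over the 3 WT libraries, on a log axis, for each member, computed with 2 measures of gene length. Ccnd1 is the highest and Ccne1 and Ccne2 the lowest with either length, while Ccnd2 and Ccnd3 change place.

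The D-type cyclins went 3 ways. Ccnd1 (cyclin D1; chr7:144929931-144939925, mm10) was at 1649.6, 1605 and 1546 CPM in WT replicates 1, 2 and 3, at 1536, 1862 and 1739 CPM in CD97-deficient and at 1659, 1564 and 1509 CPM in Gα13-deficient libraries. The groups overlapped in both comparisons. The log2 fold change was 0.10 ± 0.08 (95% interval -0.08 to 0.27, adjusted p = 0.503) without CD97 and -0.02 ± 0.08 (-0.20 to 0.16, adjusted p = 0.901) without Gα13, so that a change beyond these bounds lies outside the intervals. Ccnd1 shares 1100 of its 4709 exon bases (23.4%) with a gene on the opposite strand, listed as Oraov1. The sources used here do not say if strand entered the counting. Oraov1 differed from WT by 0.01 (adjusted p = 0.965) and -0.13 (adjusted p = 0.602) on the log2 scale.

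Ccnd2, the D-type cyclin of many growth factor-driven blood cells (chr6:127125162-127152193), fell in both genotypes. WT libraries had 199.6, 147 and 157 CPM, CD97-deficient ones 85.8, 55.1 and 99.9 CPM, and Gα13-deficient ones 83.7, 81.2 and 81.3 CPM. No mutant library reached the lowest WT library, and the 3 Gα13-deficient libraries lay close together. The gene 9330179D12Rik, which covers 368 exon bases of Ccnd2 (3.91%) on the opposite strand, averaged 2.51 CPM in WT and differed in the same direction, by -0.76 (adjusted p = 0.387) and -1.04 (adjusted p = 0.213) on the log2 scale. The log2 fold change of Ccnd2 was -1.06 ± 0.19 (adjusted p = 0.00949) in CD97-deficient and -1.03 ± 0.19 (adjusted p = 0.00811) in Gα13-deficient cells. With the sex pattern in the model the CD97 difference of Ccnd2 was -0.95 and no longer passed (adjusted p = 0.0928). Against WT replicate 2 alone, the 3 CD97-deficient libraries, all female in pattern, averaged -0.87 on the log2 scale. In the Gα13 comparison the difference was -1.11 among male-pattern libraries (2 against 2) and -0.86 between the female-pattern ones (1 against 1).

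Ccnd3 (cyclin D3; chr17:47505051-47599691) moved the other way. It was at 54.1, 49.1 and 36.4 CPM in WT, at 56.5, 61.1 and 69.2 CPM in CD97-deficient and at 73.0, 83.1 and 71.5 CPM in Gα13-deficient libraries. All Gα13-deficient libraries lay above all CD97-deficient ones, which lay above all WT ones. The rise without Gα13 was 0.70 ± 0.14 on the log2 scale (adjusted p = 0.0044). The difference without CD97, 0.41 ± 0.14, did not pass (adjusted p = 0.0736), although it did with scaling to library totals in place of TMM (0.47, adjusted p = 0.0409). Bysl, which overlaps 361 exon bases of Ccnd3 on the opposite strand, differed from WT by 0.60 (adjusted p = 0.0676) and 0.37 (adjusted p = 0.253) on the log2 scale and was not called in either genotype. A copy annotated as Ccnd3-ps has no row of its own among the counts. Reads shared with this copy could have been lost or assigned to Ccnd3. The ratio of Ccnd2 to Ccnd3 counts, which needs no scaling between libraries, was 3.69, 2.99 and 4.31 in WT, 1.52, 0.902 and 1.44 without CD97 and 1.15, 0.977 and 1.14 without Gα13. On the log2 scale this ratio differed from WT by -1.53 and -1.74, with no overlap. The exact two-sided permutation test gave p = 0.1 each, the smallest that 3 against 3 libraries allow. After Benjamini-Hochberg adjustment over the 8 ratio tests it was 0.133. In both genotypes Ccnd2 lay below and Ccnd3 above all WT libraries, so the ratio had to separate. Its p therefore adds nothing to the tests of the 2 genes.

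Both E-type cyclins, the activators of CDK2 at the start of S phase, rose from low levels. Ccne1 (chr7:38097984-38107534) was at 6.98, 7.61 and 7.30 CPM in WT, at 15.1, 17.3 and 16.9 CPM in CD97-deficient and at 11.9, 13.04 and 18.3 CPM in Gα13-deficient libraries. These WT values rest on 64, 56 and 43 counts. The groups did not overlap, and the log2 fold changes were 1.17 ± 0.20 (adjusted p = 0.0027) and 1.0 ± 0.20 (adjusted p = 0.00513). Ccne2 (chr4:11191351-11204779) was at 6.22, 6.66 and 6.28 CPM in WT, at 11.9, 9.82 and 12.4 CPM in CD97-deficient and at 15.8, 10.8 and 10.4 CPM in Gα13-deficient libraries, again without overlap. Its WT values rest on 57, 49 and 37 counts, the fewest of the 10 members.

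The log2 fold change of Ccne2 was 0.84 ± 0.22 (adjusted p = 0.029) without CD97 and 0.95 ± 0.22 (adjusted p = 0.0117) without Gα13. The CD97 call was the least firm among the members that passed: it held in 5 of 9 fits that each leave out 1 library and was lost without WT replicate 1 (adjusted p = 0.0925), WT replicate 3 (0.0571), CD97-deficient replicate 1 (0.0890) and CD97-deficient replicate 3 (0.118). It was also lost with a term for sex pattern (adjusted p = 0.127), with a term for macrophage marker level (0.0976) and with the replicate block (0.0601). The Gα13 call was lost without Gα13-deficient replicate 1 (adjusted p = 0.0624), the library with the highest Ccne2. Ccne2 shares 609 exon bases (17.4%) with Ints8 on the opposite strand, and Ints8 differed by -0.15 (adjusted p = 0.379) and -0.24 (adjusted p = 0.141) on the log2 scale. The count ratio of Ccne1 to Ccne2 differed from WT by 0.34 on the log2 scale without CD97 (exact permutation p = 0.1) and by 0.04 without Gα13 (p = 0.7).

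Ccna2, the A-type cyclin of S phase and G2 (chr3:36564865-36572150), rose in both genotypes. It was at 76.1, 92.8 and 61.8 CPM in WT, at 193, 153 and 161 CPM in CD97-deficient and at 159, 183 and 193 CPM in Gα13-deficient libraries. The lowest mutant library stood well above the highest WT library in both comparisons. The log2 fold changes were 1.13 ± 0.14 (adjusted p = 0.000703) and 1.21 ± 0.14 (adjusted p = 0.000201), and the gene passed in 9 of 9 fits that leave out a library in each comparison. Among female-pattern libraries only, the CD97 difference was 0.87 on the log2 scale. Exosc9, which shares 510 exon bases (12.5%) with Ccna2 on the opposite strand, differed from WT by 0.14 (adjusted p = 0.765) and 0.05 (adjusted p = 0.912).

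The B-type cyclins, which turn on CDK1 for mitosis, rose to a similar extent. Ccnb1 (chr13:100778650-100786570) was at 17.9, 23.1 and 15.3 CPM in WT, at 46.5, 38.7 and 38.3 CPM in CD97-deficient and at 28.4, 41.4 and 42.4 CPM in Gα13-deficient libraries, where replicate 1 was the lowest mutant library but above all of WT. Its log2 fold changes were 1.13 ± 0.18 (adjusted p = 0.00193) and 0.99 ± 0.18 (adjusted p = 0.0031). Ccnb2 (chr9:70407692-70421547) was at 29.7, 40.8 and 28.2 CPM in WT, at 64.1, 61.2 and 63.2 CPM in CD97-deficient and at 63.0, 78.4 and 70.3 CPM in Gα13-deficient libraries. These groups did not overlap either, and the CD97-deficient libraries were within 3 CPM of each other. The log2 fold changes of Ccnb2 were 0.93 ± 0.14 (adjusted p = 0.000992) and 1.10 ± 0.14 (adjusted p = 0.000191). The count ratio of Ccnb2 to Ccnb1 differed from WT by -0.19 (exact permutation p = 0.1) and 0.12 (p = 0.5) on the log2 scale. Processed copies annotated as Ccnb1-ps and Ccnb2-ps have no row of their own in the table, and reads shared with them could have been lost or assigned to the genes.

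The kinases differed from each other. Cdk1, the kinase of mitotic entry (chr10:69335146-69352938), was at 17.7, 24.1 and 16.0 CPM in WT, at 39.2, 35.6 and 44.4 CPM in CD97-deficient and at 39.9, 31.5 and 50.1 CPM in Gα13-deficient libraries. The groups did not overlap, and the log2 fold changes were 1.04 ± 0.19 (adjusted p = 0.00383) and 1.08 ± 0.19 (adjusted p = 0.00219). Between the female-pattern libraries alone (1 against 1) the Gα13 difference was 0.39 on the log2 scale, against 1.42 among the male-pattern ones (2 against 2). Cdk2, the partner of cyclins E and A (chr10:128697939-128705031), was at 38.4, 50.4 and 44.7 CPM in WT, at 49.6, 56.6 and 71.5 CPM in CD97-deficient and at 51.6, 60.0 and 57.2 CPM in Gα13-deficient libraries. WT replicate 2 overlapped the CD97-deficient range and fell just below the Gα13-deficient one. Its log2 differences of 0.42 ± 0.14 (95% interval 0.12 to 0.72, adjusted p = 0.0812) and 0.34 ± 0.14 (0.04 to 0.64, adjusted p = 0.141) did not pass. Without WT replicate 2 the CD97 difference of Cdk2 was 0.52 and passed (adjusted p = 0.0435). The count ratio of Cdk1 to Cdk2 was 0.460, 0.477 and 0.357 in WT, 0.790, 0.630 and 0.620 without CD97 and 0.773, 0.525 and 0.875 without Gα13. The mutant ratios exceeded those of WT with no overlap, by 0.66 and 0.73 on the log2 scale (exact permutation p = 0.1 each, 0.133 after adjustment).

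**Figure D3:**
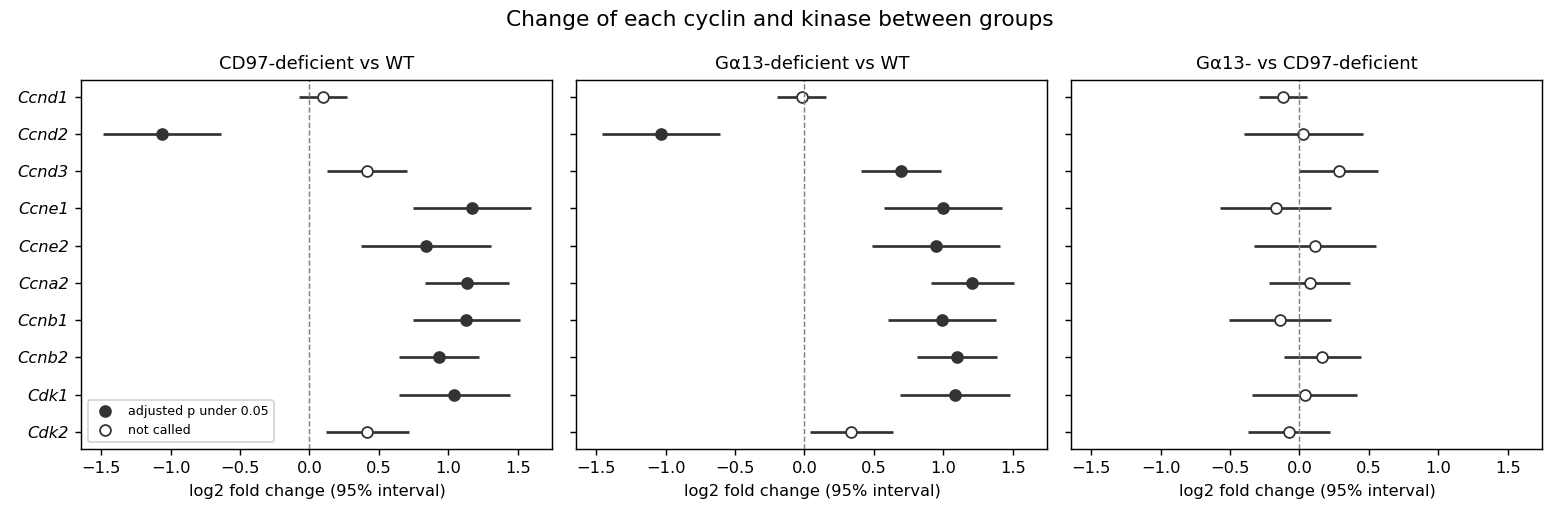
Log2 fold change with its 95% interval for each member in the 3 comparisons (x axis), with members on the y axis; filled points passed an adjusted p of 0.05 in the quasi-likelihood test. In both comparisons with WT the points of Ccnd2 lie left of 0 and those of the E, A and B cyclins and Cdk1 right of it, and no point is filled in the direct comparison of the mutants.

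The promoters of Ccnb1, Ccnb2, Cdk1 and Cdk2 are shown because the first 3 genes rose together and Cdk2, also higher in both genotypes, did not pass the test. They were thus picked by outcome, and the part of the motifs in the changes was not tested. The sequences are from RefSeq (GRCm38.p6), whose table held windows of 250 bases before to 50 after the annotated start for 6 of the 10 members, in 7 windows. Genes expressed late in the cell cycle commonly carry a cell cycle homology region (CHR), which binds the DREAM and MuvB complexes, beside CCAAT boxes bound by NF-Y, and G1/S genes commonly carry E2F sites. Searched on both strands were TTTGAA or TTCGAA (CHR), CCAAT, and TTCCCGC or TTGGCGC (E2F). The 250 bases before each start are printed 5′ to 3′ on the gene's own strand, all of them the minus strand, with matches in capitals. The positions are chr13:100786487-100786736 for Ccnb1, chr9:70421555-70421804 for Ccnb2, chr10:69352913-69353162 for Cdk1 and chr10:128705052-128705301 for Cdk2.
Ccnb1: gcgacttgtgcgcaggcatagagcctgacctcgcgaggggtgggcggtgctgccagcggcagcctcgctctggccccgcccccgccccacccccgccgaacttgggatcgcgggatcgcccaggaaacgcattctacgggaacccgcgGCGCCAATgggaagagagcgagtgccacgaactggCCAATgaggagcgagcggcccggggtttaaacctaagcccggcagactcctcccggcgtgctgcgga
Ccnb2: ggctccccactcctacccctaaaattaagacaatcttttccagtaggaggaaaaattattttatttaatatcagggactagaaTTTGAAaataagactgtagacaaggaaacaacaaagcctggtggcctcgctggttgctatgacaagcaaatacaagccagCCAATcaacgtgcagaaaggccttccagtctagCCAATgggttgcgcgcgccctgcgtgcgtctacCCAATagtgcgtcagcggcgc
Cdk1: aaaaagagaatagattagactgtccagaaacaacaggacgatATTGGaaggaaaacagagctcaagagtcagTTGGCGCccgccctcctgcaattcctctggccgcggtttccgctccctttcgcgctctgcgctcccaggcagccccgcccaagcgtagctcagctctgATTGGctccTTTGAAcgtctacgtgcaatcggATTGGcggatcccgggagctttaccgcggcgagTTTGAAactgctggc
Cdk2: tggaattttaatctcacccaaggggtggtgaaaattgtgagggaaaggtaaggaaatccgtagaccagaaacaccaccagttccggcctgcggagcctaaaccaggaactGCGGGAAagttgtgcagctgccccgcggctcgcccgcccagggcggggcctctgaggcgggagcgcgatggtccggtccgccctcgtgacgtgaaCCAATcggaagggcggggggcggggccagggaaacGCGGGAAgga
In the 300-base windows, Ccnb2 held 3 CCAAT boxes, a CHR match at position -167 and another at 5, just after the start. Cdk1 held 3 CCAAT boxes (read on the opposite strand as ATTGG), 2 CHR matches at -71 and -15 and an E2F match at -178. Ccnb1 held 2 CCAAT boxes, the upstream one overlapped by an E2F match on the opposite strand, and no CHR match in these letters. Cdk2 held 1 CCAAT box and 2 E2F matches on the opposite strand (GCGGGAA), at -140 and -10. The Ccne1 window and the first of the 2 Ccnd3 windows held none of the motifs in these letters, and the other Ccnd3 window held 1 CCAAT box. Sites that differ from the searched letters would have been missed. Of all 32851 RefSeq windows of this length, 19.2% held a CHR match, 37.4% a CCAAT match (11.7% at least 2) and 6.81% an E2F match. Both a CHR and a CCAAT match, as in the Ccnb2 and Cdk1 windows, were held by 7.52%, and all 3 kinds, as in the Cdk1 window, by 0.371%. A match describes letters in the window, not a bound site.

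**Figure D4:**
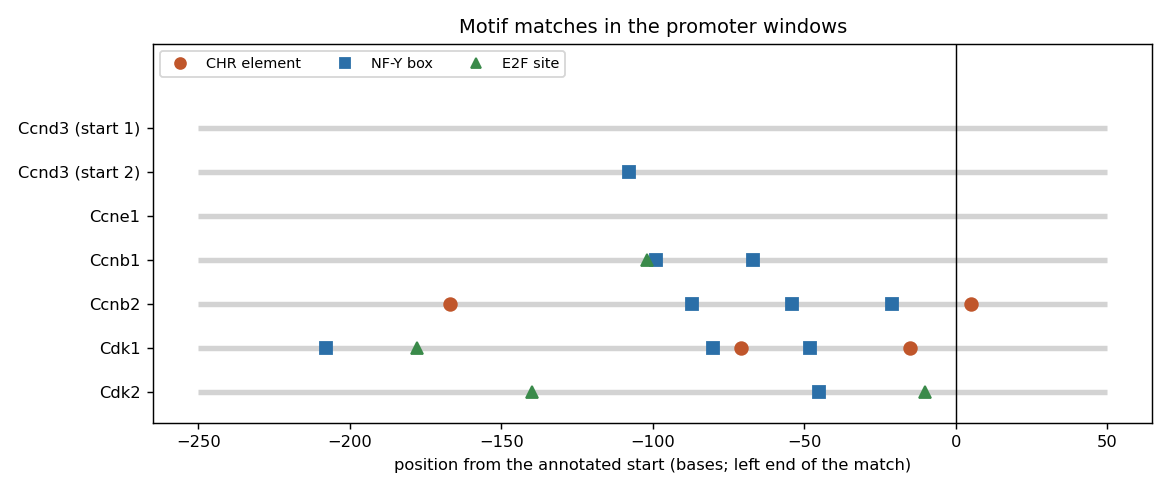
Matches to the CHR (circles), CCAAT (NF-Y box, squares) and E2F (triangles) motifs, as distance in bases from the RefSeq start (x axis, 0 is the start), for the 7 windows of the 6 members with a promoter in the table. Cdk1 and Ccnb2 hold several matches within about 100 bases of the start, and Ccne1 holds none to the exact letters searched.

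The 2 mutant genotypes did not differ in any member by the direct test. Of the 10 members 0 passed (edgeR quasi-likelihood test, 0 also at an unadjusted p under 0.05, and 0 with DESeq2 and with limma-voom), where 0.0498% of all genes did (0.0332% higher and 0.0166% lower). The log2 difference of Gα13-deficient minus CD97-deficient libraries ran from -0.17 (Ccne1) to 0.28 (Ccnd3), and the 95% intervals of all 10 lay between -0.57 and 0.57. The interval bounds the difference in each member, and a missed threshold does not show that the genotypes act alike. Ccnd3 came closest, at 0.28 (95% interval 0.00 to 0.57, unadjusted p = 0.0529, adjusted p = 0.832), and was the 1 member whose 2 mutant groups did not overlap, as was the case for 13.1% of all genes. For Ccna2 the difference was 0.07 (-0.22 to 0.37) and for Ccnd2 0.03 (-0.40 to 0.46).

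The other genes of the pathway were taken from 6 lists with 82 tested genes. Of all tested genes, 4.84% were called higher and 3.69% lower without CD97, and 5.74% higher and 5.24% lower without Gα13. These are the shares to set beside the count of every list below. Among the partner kinases and further cell cycle cyclins, 2 of 3 tested genes rose in each genotype and none fell. Ccnf, a cyclin that serves as the substrate receptor of a ubiquitin ligase, rose by 0.81 ± 0.13 (adjusted p = 0.00234) without CD97 and by 0.90 ± 0.13 (adjusted p = 0.000706) without Gα13. Cdk4, a kinase partner of the D-type cyclins, rose by 0.48 ± 0.13 (adjusted p = 0.031) and 0.42 ± 0.13 (adjusted p = 0.0477), calls that held in 5 of 9 and 3 of 9 fits that leave out a library. Its adjusted p reached 0.153 without CD97-deficient replicate 3 in the former and 0.165 without Gα13-deficient replicate 2 in the latter. Cdk6, the other D-type partner, differed by 0.21 (adjusted p = 0.563) and 0.40 (adjusted p = 0.230).

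Among the CDK inhibitors 3 of 6 tested genes rose in each genotype and none fell, with a median log2 fold change of 0.34 and 0.49. Cdkn2d and Cdkn2c, INK4 proteins that hold CDK4 and CDK6, rose by 0.87 (adjusted p = 0.0156) and 0.71 (adjusted p = 0.0107) without CD97 and by 1.23 (adjusted p = 0.0014) and 0.83 (adjusted p = 0.00288) without Gα13. Cdkn3, a phosphatase that acts on CDKs and is itself made in dividing cells, rose by 0.81 (adjusted p = 0.0405) and 0.87 (adjusted p = 0.0229). Its CD97 call held in 1 of 9 fits that leave out a library, with an adjusted p of up to 0.173 (without WT replicate 1). Its Gα13 call held in 6 of 9, up to 0.0972 without the same library. The Cdkn2d call without CD97 held in 6 of 9 (up to 0.0726 without CD97-deficient replicate 1). Cdkn1a, the p53 target p21, did not pass in either genotype, at -0.71 (adjusted p = 0.0926) and 0.15 (adjusted p = 0.737). Its CD97 difference did pass with the macrophage level in the model (adjusted p = 0.0302) and without WT replicate 3 (adjusted p = 0.0188).

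Direct regulators of CDK activity rose in 6 of 10 genes in each genotype, with a median log2 fold change of 0.72 in both. Wee1, the kinase that inhibits CDK1 by phosphorylation, rose by 0.86 ± 0.13 (adjusted p = 0.0012) and 0.80 ± 0.13 (adjusted p = 0.00136). Cdc25c, the phosphatase that removes that mark, rose by 1.45 ± 0.23 (adjusted p = 0.0017) and 1.36 ± 0.23 (adjusted p = 0.0018). Genes with opposing effects on CDK1 thus rose together. Cks1b, a small CDK-binding subunit, rose by 1.20 (adjusted p = 0.003) and 1.21 (adjusted p = 0.00197). Cdc25b rose by 0.93 (adjusted p = 0.018) and 1.05 (adjusted p = 0.00667), and its CD97 call held in 5 of 9 fits that leave out a library (up to 0.0751 without WT replicate 1).

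In the cyclin degradation machinery 3 of 19 genes rose in each genotype and none fell, with medians of 0.14 and 0.22. Of all tested genes, 4.84% rose without CD97 and 5.74% without Gα13. These were Fbxo5, the inhibitor of the anaphase-promoting complex (0.73, adjusted p = 0.00527, and 0.78, adjusted p = 0.00257), Ube2c, its ubiquitin-conjugating enzyme (1.18, adjusted p = 0.0078, and 1.26, adjusted p = 0.00383), and Cdc20, its mitotic activator (0.99, adjusted p = 0.0214, and 1.12, adjusted p = 0.0087). The CD97 call of Cdc20 held in 5 of 9 fits that leave out a library (up to 0.0968 without CD97-deficient replicate 3). Skp2, the F-box protein that targets p27, differed by 0.29 (adjusted p = 0.156) and 0.37 (adjusted p = 0.063).

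Of 20 pocket protein, E2F, DP and DREAM genes 9 rose in each genotype, with a median of 0.30 in both. Foxm1, the transcription factor that turns on G2/M genes such as Ccnb1, rose by 0.94 ± 0.11 (adjusted p = 0.000584) and 1.06 ± 0.11 (adjusted p = 0.000108). E2f1, an activator of G1/S genes, rose by 1.04 (adjusted p = 0.0147) and 1.27 (adjusted p = 0.00334), and the E2F repressors E2f8 by 1.08 (adjusted p = 0.00306) and 1.22 (adjusted p = 0.00111) and E2f7 by 0.96 (adjusted p = 0.00413) and 1.04 (adjusted p = 0.00168). The CD97 call of E2f1 held in 6 of 9 fits that leave out a library (up to 0.0649 without CD97-deficient replicate 3). The cyclins and CDKs of transcription and other atypical ones had medians of 0.00 and -0.08. None of their 24 tested genes rose, and 2 fell without CD97 and 1 without Gα13, counts that lie near the shares of all genes. Ccnt2, a cyclin of the elongation kinase CDK9, fell in both, by 0.38 (adjusted p = 0.0167) and 0.34 (adjusted p = 0.0228), with the calls held in 8 of 9 (up to 0.0993) and 6 of 9 (up to 0.1) fits. Ccnl1, a cyclin linked to splicing, fell without CD97 by 0.41 (adjusted p = 0.0215, held in 6 of 9 fits and up to 0.118 without CD97-deficient replicate 3) and stood at -0.28 (adjusted p = 0.0851) without Gα13. Cdk12, a kinase of the polymerase's tail, was at -0.26 (adjusted p = 0.0899) and -0.27 (adjusted p = 0.063), and Cdk17 at -0.31 (adjusted p = 0.117) and -0.36 (adjusted p = 0.063). With the sex pattern in the model the CD97 calls of Ccnt2 (adjusted p = 0.117) and Ccnl1 (adjusted p = 0.163) were both lost. In the direct comparison 0 genes of the 6 lists passed.

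The list counts of the CD97 comparison depended on the sex pattern, the macrophage level and several libraries. With the sex pattern in the model, the genes called higher numbered 1 (partner kinases and cyclins), 0 (CDK inhibitors), 3 (CDK regulators), 1 (degradation) and 2 (pocket proteins and E2Fs). In the same order they numbered 1, 1, 3, 2 and 3 without CD97-deficient replicate 3, and likewise without WT replicate 1. They numbered 1, 2, 3, 2 and 3 without WT replicate 3, and 1, 1, 4, 2 and 4 without CD97-deficient replicate 1 or with a term for macrophage marker level. Without CD97-deficient replicate 2 they numbered 2, 2, 4, 3 and 4, and without Gα13-deficient replicate 2 the pocket protein and E2F count was 5. In the Gα13 comparison the replicate numbers were taken to pair the libraries, which the labels do not state. There the replicate block left 5 CDK regulators and 8 pocket protein and E2F genes called higher. Cdc25a (adjusted p = 0.05004) and Rbl1 (adjusted p = 0.0569) were lost. The list counts of the Gα13 comparison also moved with single libraries. In the order above they numbered 1, 2, 5, 3 and 6 without Gα13-deficient replicate 2. Without replicate 3 they numbered 1, 2, 4, 3 and 6, with 1 pocket protein or E2F gene called lower. They numbered 1, 2, 5, 4 and 6 without WT replicate 1, and 1, 3, 4, 3 and 6 without WT replicate 3. Ccnf, Cdc25c, Wee1, Cks1b, Ube2c, E2f8 and Foxm1 were called with the sex pattern in the model and in all 9 fits that leave out a library.

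**Figure D5:**
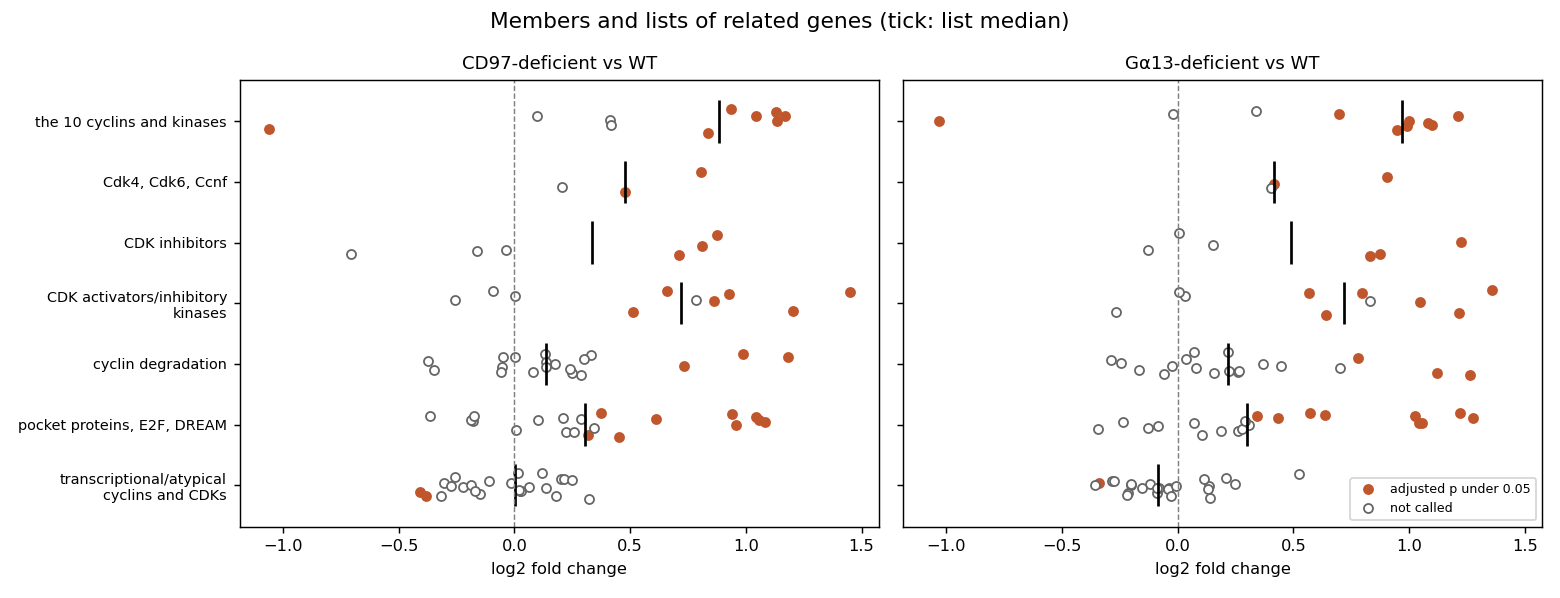
Log2 fold change against WT (x axis) of the 10 members (top row) and of every tested gene of the 6 pathway lists (y axis), with the median of each as a tick, for CD97-deficient and Gα13-deficient cells, with filled points for genes past an adjusted p of 0.05. Apart from Ccnd2 in the top row, filled points of the cell cycle genes lie right of 0, and those of the transcriptional cyclins and CDKs left of it.

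Genes with patterns most like a member were found by the root mean square (RMS) difference of log2 CPM over the 9 libraries, each gene centred on its mean, among 10045 genes. For Cdk1 these were Stil (0.115), Kif15 (0.126) and Fignl1 (0.129), where Cdk1 itself varied around its mean by an RMS of 0.550. For Ccne2 they were Igsf8 (0.129), Btd (0.163) and Chek1 (0.175), for Ccnd3 Ttll12 (0.108), Prim2 (0.110) and Umps (0.115), and for Cdk2 Trmt61a (0.0869) and Psmb7 (0.0897). The nearest gene was Top2a for Ccna2 (0.0963), Casc5 for Ccnb2 (0.0504), Aspm for Ccnb1 (0.108), Neil3 for Ccne1 (0.111), Serpinb9 for Ccnd2 (0.171) and Rbm12 for Ccnd1 (0.0299). The members' own variation around the mean differed, with an RMS of 0.0919 for Ccnd1, 0.243 for Cdk2 and 0.587 for Ccna2. A small distance thus says less for a member that varied little. Among the members themselves, the closest pairs were Ccna2 with Ccnb2 (0.132) and Ccna2 with Ccnb1 (0.145). Ccnd2 was farthest from the others, at 1.09 from Ccna2. The points of each gene share libraries and depth, and these distances are descriptions.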

How the data were processed

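RNA-seq read counts per gene for 9 libraries were deposited by the authors as 1 table of raw counts, not normalized. STAR, HTSeq, DESeq2 and the mm10 build are named in the submitters' processing notes, without versions; the sources used here do not give strandedness. Every gene in the table had at least 10 counts over the 9 libraries. Source names linked table columns to samples.

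Counts were tested with edgeR 4.0.16 (R 4.3.3): TMM scaling, a group-wise expression filter that removed 2166 genes, 1 robust quasi-likelihood fit of genotype over all 9 libraries, and Benjamini-Hochberg adjustment over 12043 genes at 0.05. The common biological coefficient of variation was 0.150. Errors are SE of the log2 fold change unless said otherwise. The procedure was tested on simulated data with 200 changed genes. Alternatives were other scaling, no filter, DESeq2 1.42.0, limma-voom (limma 3.58.1), the compared groups only, a replicate block, the sex pattern or the macrophage level as a term, and leaving out each library.

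Members and lists were chosen with earlier results of these data known. Named were all members, up to 4 genes per list with the smallest p in either comparison with WT, and the genes nearest to a member in pattern; some items are not reported here. Gene lengths and coordinates come from GENCODE on mm10. Same-numbered Gα13-deficient and WT libraries deviated together in 3 of 3 pairs (correlation across genes 0.110 to 0.157), so the numbers were taken to pair them. CD97-deficient and WT libraries did so in 0 of 3 pairs. The labels state no pairing, and the main fit did not use it. Same-numbered Gα13-deficient and WT libraries also shared the sex pattern, whose part in the correlation was not tested.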

Additional observations from a re-analysis of the deposited data

How the results depend on the processing

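No called member changed direction under any alternative. Members called numbered 7 without CD97 (5 to 8 over the alternatives; 6 to 8 leaving out 1 library), 8 without Gα13 (7 to 8 leaving out 1 library) and 0 between the mutants (0 to 0). With the replicate block the counts were 6, 8 and 0: Ccne2 without CD97 was lost (adjusted p = 0.0601) and the block changed no other member's call. With the sex pattern in the model 5 members were called without CD97, all higher, and Ccnd2 (-0.95, adjusted p = 0.0928) and Ccne2 (0.127) were lost; the cause was not tested.

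Over all genes, the 1027 calls without CD97 became 222 with the sex pattern, 548 with the macrophage level, and, leaving out 1 library, 472 (WT replicate 1), 529 (CD97-deficient replicate 1) and 364 (CD97-deficient replicate 3). The 1322 calls without Gα13 became 693 without Gα13-deficient replicate 2. The 6 between the mutants became 57 with DESeq2, 53 with the compared groups only, 73 with the block, 11 without a filter, 14 with the macrophage level, 14, 25 and 12 without WT replicates 1, 2 and 3, and 25 without Gα13-deficient replicate 3, against 4 with limma-voom, the sex pattern, or without CD97-deficient replicate 1 or 2 or Gα13-deficient replicate 1. Scaling to library totals moved the split of higher to lower calls from 583 and 444 to 774 and 331 without CD97, and from 691 and 631 to 861 and 523 without Gα13. Counting limits precision most for Ccne1 and Ccne2.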

Other observations

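Cdkn1a, the gene of the CDK inhibitor p21, differed by 0.86 ± 0.24 on the log2 scale between Gα13-deficient and CD97-deficient libraries, with no overlap, but did not pass the adjustment over all genes (adjusted p = 0.478). It passed with the compared groups only and no block (0.85, adjusted p = 0.0491), and its adjusted p under the other settings lay at 0.0920 or above, so this call depends on the setting. The 3 D-type cyclins together, per kilobase of exon, stood at 363 ± 14.3 CPM per kb (SD, n = 3) in WT, 379 ± 34.1 without CD97 and 352 ± 16.3 without Gα13. Ccnd1 made up 93.6%, 95.8% and 95.1% of that sum on average. With the mean length of coding transcripts its share was 78.2%, 82.7% and 79.4%, so the shares depend on the length used.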
